A study of Mus musculus with 2 samples.

Results

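The 45 genes described here encode the proteins that copy DNA and the enzymes that supply its building blocks. The list names origin licensing factors, helicase activators, fork proteins and deoxynucleotide synthesis enzymes by gene symbol. Its rule uses no measured value, but the list was drawn up with earlier results of these data known. All 45 were found on the arrays through the accession of their probe, among 24021 genes tested. Gene expression had been measured in mouse embryonic stem cells (mESCs) on 2 Agilent two-colour arrays. Both arms of the experiment carried *AIMP3* alleles flanked by loxP sites (*AIMP3* f/f) and Cre-ERT2, a recombinase that tamoxifen switches on, in mESCs derived from blastocysts. In the AIMP3-depleted arm, the cells were kept with 2 μM 4-hydroxytamoxifen (4-OHT) for 4 days in medium with LIF, in 2 replicates. Control cells received ethanol for the same 4 days, and the RNA of their cultures was pooled into 1 control sample. AIMP3-depleted RNA was labelled with Cy5 and the control pool with Cy3 on both arrays, so dye and condition cannot be told apart. Effects of 4-OHT or of Cre itself cannot be told apart from AIMP3 loss either. The labels place the culture on feeder layers of mouse embryonic fibroblasts, whereas the methods name medium conditioned by them.

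Replication starts with licensing, in which the origin recognition complex (ORC) together with Cdc6 and Cdt1 loads the MCM2-7 helicase onto DNA before S phase. Cdc45, the GINS complex and Mcm10 then turn the loaded helicase into an active one, and polymerases, the sliding clamp PCNA and its loader RFC copy both strands at the fork. Ribonucleotide reductase and thymidylate enzymes make the deoxynucleotides that are built in. Many of these genes are known targets of E2F transcription factors, and mESCs cycle fast, with a large part of their cells in S phase.

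Each value is the log2 ratio of AIMP3-depleted cells over the control pool on 1 array, after normalization. A gene was called lower or higher where limma's test of the mean ratio against 0 gave a Benjamini-Hochberg adjusted p under 0.05 over all tested genes. The study's own threshold, over 1.5-fold with an unadjusted p under 0.05, was applied as well. *Eef1e1*, which encodes AIMP3 and is the gene deleted, had log2 ratios of −0.90 and −0.90 on the arrays of replicates 1 and 2 (adjusted p = 4.78e-05, limma). Part of its RNA signal therefore remained in AIMP3-depleted cells. All 15 mESC markers examined and all 45 replication genes passed the scanner's background test in each channel and array. Signal exceeded background by a median of 2.68 to 3.31 times, and no spot was saturated. After loess, limma's p-values set the mean ratio against an error drawn mostly from all tested genes (1 residual and 5.28 prior degrees of freedom). A gene's own spread between these 2 arrays, which may be technical, is the smaller part of that error. *Orc6* and *Orc5* had standard errors of 0.044 and 0.061 at SDs between arrays of 0.000128 and 0.151. The spread between control cultures is left out.

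To show how the promoters of the genes look, windows of 250 bases before to 50 bases after the start site were taken from RefSeq (GRCm38.p6). A window was given for 38 of the 45 genes, with 46 windows in all, and none for *Mcm4*, *Gins1*, *Gins2*, *Gins4*, *Prim2*, *Pole* and *Rfc2*. The letters TTTCCCGC, TTTGGCGC, TTTCGCGC and TTTGCCGC, forms of the E2F motif, were searched on both strands. At least 1 of them was in 15 of the 46 windows (32.6%), against 744 of 32851 windows of all RefSeq genes (2.26%). The CCAAT letters, the NF-Y motif, were in 54.3% of the members' windows and 37.4% of all windows. These matches describe letters only and do not show binding. The 250 bases before the start site are shown for *Mcm6*, the lowest of the licensing genes with 3 matches, and for *Tyms*, the highest of all 45 genes and without a match. Capitals mark the E2F letters, and the first 2 matches of *Mcm6* lie on opposite strands and overlap.
Mcm6 (chr1:128359706-128359955, minus strand, bases −250 to −1 from the start site): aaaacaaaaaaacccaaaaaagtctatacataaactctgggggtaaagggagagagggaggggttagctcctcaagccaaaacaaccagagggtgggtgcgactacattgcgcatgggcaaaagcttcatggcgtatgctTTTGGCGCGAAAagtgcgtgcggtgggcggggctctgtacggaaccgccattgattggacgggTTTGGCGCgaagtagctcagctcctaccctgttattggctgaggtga
Tyms (chr5:30073626-30073875, minus strand, bases −250 to −1 from the start site): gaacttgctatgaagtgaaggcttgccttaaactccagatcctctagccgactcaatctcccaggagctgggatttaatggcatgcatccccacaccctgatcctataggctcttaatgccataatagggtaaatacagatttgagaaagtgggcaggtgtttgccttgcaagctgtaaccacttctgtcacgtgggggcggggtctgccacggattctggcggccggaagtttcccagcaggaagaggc
In further licensing genes the matches stood on either side of the start site, and the stretches below show both arrangements. *Mcm5* held an overlapping pair of matches like that of *Mcm6*, while *Mcm3* held a pair after the start site. *Mcm7* had 1 match before and 1 after it, *Cdt1* had 1 after it, and *Cdc6* had 1 before it.
Mcm3 (chr1:20820265-20820294, minus strand, bases 19 to 48 from the start site): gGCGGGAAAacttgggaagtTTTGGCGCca
Mcm5 (chr8:75109335-75109384, plus strand, bases −174 to −125 from the start site): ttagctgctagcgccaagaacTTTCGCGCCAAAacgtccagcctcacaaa
Mcm7 (chr5:138172020-138172069, minus strand, bases −186 to −137 from the start site): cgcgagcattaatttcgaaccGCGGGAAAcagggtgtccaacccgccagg
Mcm7 (chr5:138171849-138171878, minus strand, bases 6 to 35 from the start site): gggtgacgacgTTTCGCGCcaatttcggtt
Cdt1 (chr8:122568035-122568064, plus strand, bases 21 to 50 from the start site): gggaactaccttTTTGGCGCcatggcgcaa
Cdc6 (chr11:98907992-98908041, plus strand, bases −159 to −110 from the start site): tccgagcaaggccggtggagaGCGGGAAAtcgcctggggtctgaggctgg
Matches were found in 4 of the 5 MCM2-7 genes with a window, in both helicase loaders, in 2 of 6 ORC genes and in 3 of 4 genes of polymerases δ and ε. They were in none of the 5 deoxynucleotide synthesis genes and in none of the 3 single-strand binding genes. The 15 genes with a match, ordered by their log2 ratio, ran from *Mcm6* through *Pold3*, *Lig1*, *Pold1*, *Mcm7*, *Mcm3*, *Pola1*, *Orc3*, *Pole2*, *Cdt1*, *Orc1*, *Rfc3*, *Gins3* and *Mcm5* to *Cdc6*.

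**Figure D1:**
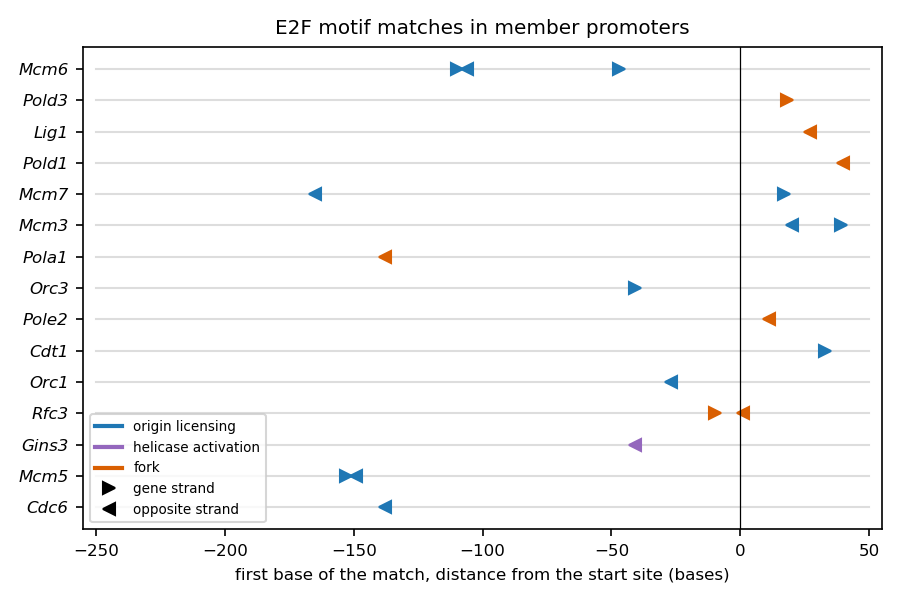
Distance of the first base of each E2F motif match from the start site (x axis, bases) in the 15 member genes with a match, ordered from the lowest to the highest log2 ratio. Arrowheads give the strand and colours the class; the matches of *Mcm6* start at −110, −106 and −47 bases and that of *Cdc6* at −138 bases.

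After loess normalization, most of the replication genes were expressed at a lower level in AIMP3-depleted cells, by less than 1.5-fold for all but *Gins2*. The ratio was negative for 43 of them with loess and for 27 with median centring of the arrays, so 16 turned positive. Of the 45 genes, 37 were called lower and 0 higher by limma, whereas 23.7% of all tested genes were called lower and 30.6% higher. At an unadjusted limma p under 0.05 the counts were also 37 and 0, among 27% and 33.5% of all tested genes. The methods' t-test, which shares no variance between genes, put 20 of them lower and 0 higher at an unadjusted p under 0.05, among 10.4% and 14.1% of all tested genes. After adjustment, 0 of all tested genes passed. With limma on other values, 32 of the 45 genes were called lower with the scanner's processed signals, 31 with the deposited values and 29 without a filter on dim probes, among 23.3%, 19.1% and 12.9% of all genes tested there. The genes *Gins3*, *Mcm5*, *Orc2*, *Orc5*, *Orc6* and *Tk1* lost their calls under each of these. The median log2 ratio of the 45 genes was −0.30, with −0.30 on the first and −0.31 on the second array, against 0.02 over all tested genes. At the 1.5-fold threshold only *Gins2* was lower and 0 were higher, against 0.791% and 5.53% of all tested genes. The ratio was negative on both arrays for 41 genes, positive on both for *Gins4* and *Tyms*, and of opposite sign for *Orc4* and *Prim2*. The SD between the arrays ranged from 0.000128 to 0.151 on the log2 scale, with a median of 0.036. In a bulk RNA sample, fewer cycling cells and less RNA of these genes per cell cannot be told apart.

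These directions rest in part on the dye normalization. Loess, which centres the ratios near 0 at each intensity, kept the median of all genes at 0.02. Centring each array on its median moved it to 0.18, with medians of 0.06, 0.20 and 0.29 in the dimmest, the middle and the brightest of 3 equal intensity bins. On that scale 9 of the 45 genes were called lower and 9 higher, among 8.74% and 54.5% of all tested genes. The members' adjusted p-values followed the size of the mean ratio there, whatever the difference between the arrays. *Pold2*, at −0.28 and −0.28, had a larger adjusted p (0.000158, limma) than *Tyms*, at 0.44 and 0.17 (4.81e-05, limma). A call on that scale therefore does not show that the arrays agree. The members' median was then −0.02, a difference of −0.20 from the median of all genes in place of −0.31, and 10 of the 37 genes called lower changed sign. The genes that stayed lower were *Gins1*, *Gins2*, *Lig1*, *Mcm6*, *Pola2*, *Pold2*, *Pold3*, *Rfc1* and *Rfc5*. The genes called higher on that scale were *Fen1*, *Gins3*, *Gins4*, *Mcm10*, *Orc4*, *Orc6*, *Prim2*, *Rpa3* and *Tyms*. Of the members, 33 lay in the brightest bin, 12 in the middle bin and 0 in the dimmest. Within their own bin, 43 of the 45 genes lay below the median of all genes with loess and 44 with median centring. The gap between members and all genes in the brightest bin was −0.33 with loess and −0.30 with median centring, and in the middle bin it was −0.23 with either.

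**Figure D2:**
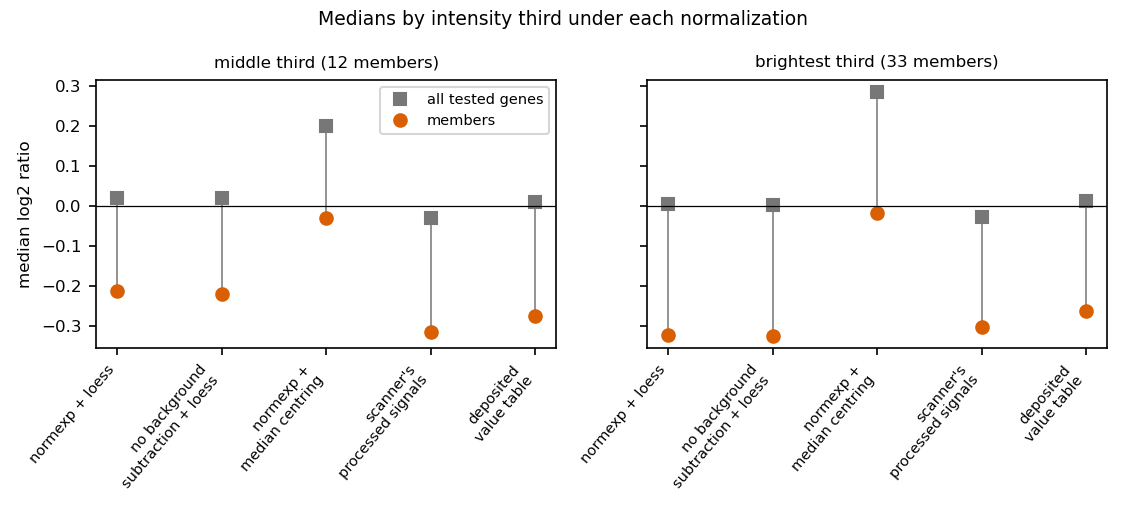
Median log2 ratio (y axis) of all tested genes (squares) and of the replication genes (circles) in the middle and the brightest intensity bin under 5 normalizations (x axis). In each panel the circle lies below the square at each setting, while with median centring the squares rise to 0.20 and 0.29 and the circles lie at −0.03 and −0.02, so the position relative to 0 depends on the setting.

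Among the licensing genes, all 6 genes of the MCM2-7 helicase were called lower with loess, with a median of −0.38, whereas with median centring their median was −0.01, *Mcm6* alone kept its call and *Mcm5* turned positive. *Mcm6* had normalized log2 intensities of 15.54 and 15.53 in AIMP3-depleted cells and of 16.11 and 16.12 in the control channels. Its log2 ratios were therefore −0.57 and −0.59, each against the same control pool. The mean of −0.58 ± 0.011 (SD, n = 2; adjusted p = 0.000162, limma) placed *Mcm6* lowest of the licensing genes, just short of the 1.5-fold threshold at 0.585 on the log2 scale. The other subunits lay nearer to 0. *Mcm7* was at −0.40 and −0.40 on the arrays of replicates 1 and 2. *Mcm3* was at −0.32 and −0.46. *Mcm4* was at −0.34 and −0.39. *Mcm4*, *Mcm6* and *Mcm7* encode a subcomplex with helicase activity of its own, and the mean of *Mcm3* (−0.39), which is outside it, lay between those of *Mcm4* (−0.36) and *Mcm7* (−0.40). *Mcm2* was at −0.32 and −0.26. *Mcm5* was at −0.11 and −0.19 (adjusted p = 0.0342, limma) and thus lay nearest to 0 of the ring. Its call was lost with the processed signals (−0.11), with the deposited values (−0.07) and without a filter on dim probes, so 5 of the 6 genes were called there.

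Of the genes that load the ring, *Cdt1*, which brings MCM2-7 to the origin, was at −0.22 and −0.37 and was called lower (adjusted p = 0.00428, limma), but was at 0.05 with median centring. *Cdc6*, the ATPase that joins ORC, was at −0.06 and −0.11 and was not called. A second probe for *Cdc6* gave 0.28 and 0.24, so its probes disagree in sign, whereas with the processed signals *Cdc6* was called lower at −0.18 (adjusted p = 0.0406, limma).

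In the origin recognition complex, 5 of 6 genes were called lower with loess, with a median of −0.17, whereas with median centring the median was 0.03 and none of the 5 kept its call. *Orc2* and *Orc6* of these turned positive, and *Orc6* was then called higher, as was *Orc4*. Only *Orc1* and *Orc3* were called lower with the processed signals or the deposited values, and only *Orc3* without a filter on dim probes. The ratios themselves were not nearer to 0 throughout, since the median of the complex was −0.24 with the processed signals and −0.20 with the deposited values, and *Orc5* was at −0.31 and −0.27. *Orc3* was the lowest, at −0.31 and −0.37. *Orc5*, at −0.13 and −0.34, had the widest SD of the 45 genes. *Orc1*, an ATPase of the complex, was at −0.12 and −0.30, with a mean of −0.21 that was −0.36 with the processed signals and −0.32 with the deposited values. For *Orc5* and *Orc1*, the first array therefore gave the smaller fall. *Orc6* was at −0.14 on both arrays, *Orc2* was at −0.09 and −0.19 (adjusted p = 0.0488, limma), and *Orc4* was at −0.07 and 0.05 and was not called. A dimmer second probe of *Orc4* gave −0.19 and −0.26, and one of *Orc3* gave −0.39 and −0.14.

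The helicase activators ranged from −0.59 to 0.04. Of 6 genes, 4 were called lower with loess, with a median of −0.19, whereas with median centring the median was 0.07, *Gins1* and *Gins2* kept their calls, and *Gins3*, *Gins4* and *Mcm10* were called higher. *Gins2*, a GINS subunit, had log2 ratios of −0.59 and −0.59 on the arrays of replicates 1 and 2, a 1.5-fold fall (adjusted p = 0.000155, limma) and the largest of the 45. *Gins1* was at −0.39 and −0.45, and *Gins3* at −0.15 and −0.16, a call that was lost with the processed signals (−0.09), with the deposited values (−0.05) and without a filter on dim probes. *Gins4*, which belongs to the same complex, was at 0.03 and 0.05 and was not called (adjusted p = 0.465, limma), while with median centring it was called higher at 0.27 (adjusted p = 0.000231, limma). *Cdc45*, the partner of GINS on the helicase, was at −0.18 and −0.25, with a mean of −0.21 that was −0.39 with the processed signals and −0.35 with the deposited values. *Mcm10*, a scaffold that helps to open the DNA, was at −0.05 and −0.03 and was not called.

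**Figure D3:**
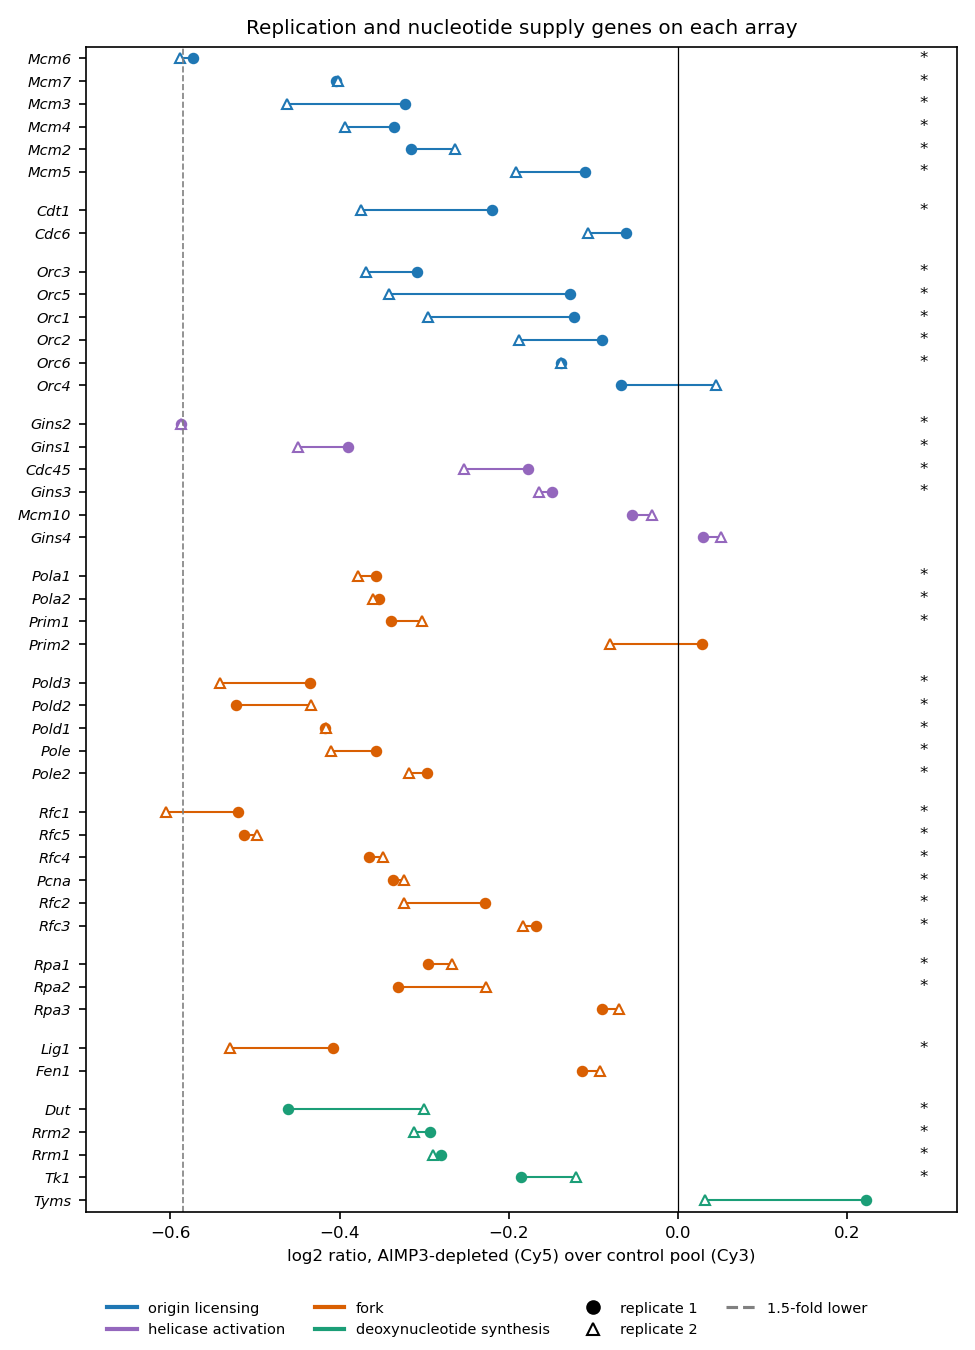
Log2 ratio of AIMP3-depleted cells over the control pool (x axis) on the arrays of replicates 1 (filled circles) and 2 (open triangles) for each of the 45 genes, grouped by role and coloured by class, after loess. A star marks an adjusted p under 0.05 (limma), the dashed line is a 1.5-fold fall, and 37 genes carry a star, all on the lower side, of which 10 turned positive with median centring.

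At the fork, 17 of 20 genes were called lower with loess. All 5 genes of polymerases δ and ε, which copy the leading and lagging strands, were called lower, with a median of −0.42. With median centring the median was −0.14 and *Pold2* and *Pold3* kept their calls, while *Pold1* (−0.14), *Pole* (−0.08) and *Pole2* (−0.10) did not. *Pold3*, an accessory subunit of polymerase δ, was at −0.43 and −0.54. *Pold2*, which bridges its subunits, was at −0.52 and −0.43. *Pold1*, the catalytic subunit, was at −0.42 and −0.42. The SD between arrays was at most 0.076 for these polymerase δ genes. *Pole*, the catalytic subunit of polymerase ε, was at −0.36 and −0.41, and *Pole2* was at −0.30 and −0.32. A dim second probe for *Pole* gave 0.08 and −0.07.

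Polymerase α-primase, which lays down the primers, had 3 of 4 genes called lower, with a median of −0.34. With median centring the median was −0.09, *Pola2* kept its call, *Pola1* (−0.14) and *Prim1* (−0.03) lost theirs, and *Prim2* was called higher. *Pola1* was at −0.36 and −0.38, *Pola2* at −0.35 and −0.36, and *Prim1*, the catalytic primase subunit, at −0.34 and −0.30. *Prim2*, the large primase subunit, was at 0.03 and −0.08 and was not called.

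All 6 genes of the sliding clamp and its loader were called lower with loess, with a median of −0.34. With median centring the median was −0.07, *Rfc1* and *Rfc5* kept their calls, *Rfc2* and *Rfc4* lost theirs, and *Pcna* and *Rfc3* turned positive. *Rfc1*, the large subunit of the loader, was the lowest fork gene, at −0.52 and −0.60 with a mean of −0.56 ± 0.060 (SD, n = 2; adjusted p = 0.000226, limma). *Rfc5* was at −0.51 and −0.50. *Rfc4* was at −0.36 and −0.35, and its second probe at −0.48 and −0.44. *Rfc2* was at −0.23 and −0.32, and *Rfc3*, at −0.17 and −0.18, lay nearest to 0 of the loader and lost its call without a filter on dim probes. *Pcna*, the clamp, was at −0.34 and −0.32.

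Of the RPA genes, whose products cover single-stranded DNA, *Rpa1* was at −0.29 and −0.27 and *Rpa2* at −0.33 and −0.23, and both were called lower. *Rpa3* was at −0.09 and −0.07 and was not called. With median centring neither call was kept, *Rpa1* was at 0.06 and *Rpa3* was called higher at 0.19. In Okazaki fragment maturation, *Lig1*, the ligase that seals the fragments, was at −0.41 and −0.53 and was called lower (adjusted p = 0.000552, limma). *Fen1*, the flap nuclease that acts before it, was at −0.11 and −0.09 and was not called. With median centring *Lig1* kept its call and *Fen1* was called higher at 0.19.

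Of 5 deoxynucleotide synthesis genes, 4 were called lower with loess, with a median of −0.28, while with median centring the median was 0.06, none of the 4 kept its call, and *Rrm2* and *Tk1* turned positive. *Rrm1* and *Rrm2*, the subunits of ribonucleotide reductase, were at −0.28 and −0.29 and at −0.29 and −0.31. The subunits of the enzyme thus gave similar ratios on each array. *Dut*, which removes dUTP, was at −0.46 and −0.30, and *Tk1*, the salvage kinase for thymidine, at −0.19 and −0.12. The call of *Tk1* was lost with the processed signals (−0.16), with the deposited values (−0.12) and without a filter on dim probes (−0.15), at ratios near the mean of −0.15. *Tyms*, thymidylate synthase, had normalized log2 intensities of 9.51 and 9.31 in AIMP3-depleted cells and of 9.29 and 9.28 in the control channels. Its log2 ratios were 0.22 and 0.03 and it was not called (adjusted p = 0.107, limma). With median centring its ratios were 0.44 and 0.17, and it was called higher at a mean of 0.30 (adjusted p = 4.81e-05, limma). That p-value followed the size of the mean and not the difference between the arrays. *Tyms* makes dTMP de novo, and its ratio was above that of the other genes of its class on both arrays.

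The order of the classes was not settled by 2 arrays. The fork genes had the lowest median, at −0.35 and −0.34 on the arrays of replicates 1 and 2, and the deoxynucleotide genes followed at −0.28 and −0.29. The licensing genes were at −0.18 and −0.32. Licensing thus exceeded the fork by 0.17 on the first array and by 0.02 on the second, and the order of licensing and deoxynucleotide synthesis turned, with differences of 0.10 and −0.03. The deoxynucleotide median exceeded that of the fork by 0.07 and 0.05. No test was made of these differences, since the genes of a class are not replicates.

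**Figure D4:**
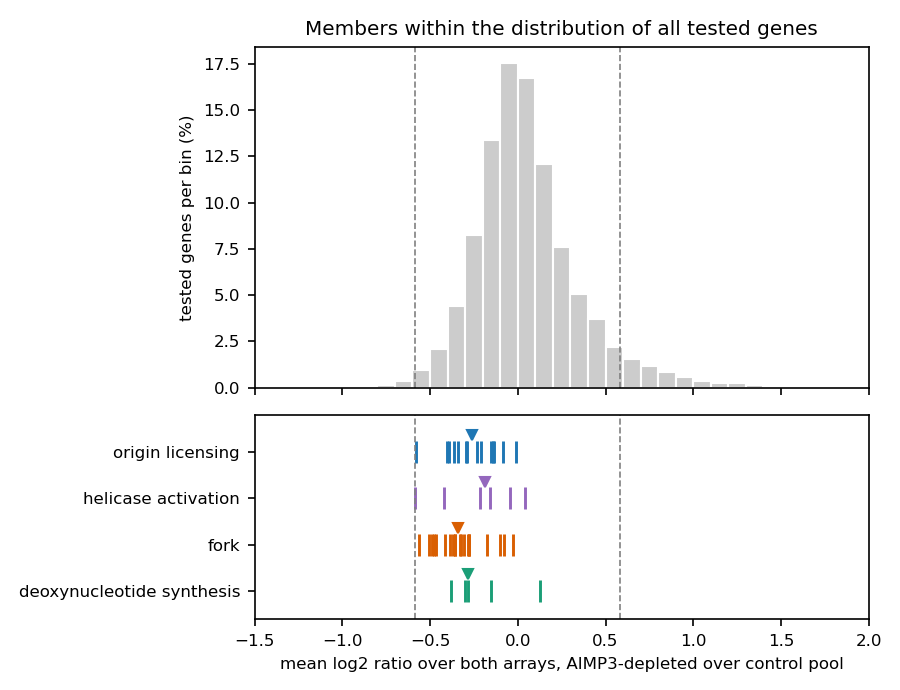
Upper panel, share of the 24021 tested genes (y axis, %) in bins of 0.1 of the mean log2 ratio (x axis) after loess; lower panel, the 45 genes by class (ticks) with the class median (triangles). Dashed lines mark 1.5-fold in either direction; 28 of the 45 genes lie under the 10th percentile of all tested genes, on a scale where median centring moves the median of all genes from 0.02 to 0.18.

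Other genes of the cell cycle and of nucleotide metabolism were examined for comparison, and none passed the 1.5-fold threshold. Among 28 further genes of replication control and fork accessories, 15 were called lower and 1 higher, with a median of −0.18 that was 0.07 with median centring. The lowest were *Top2a*, the topoisomerase of dividing cells, at −0.51 and *Dna2*, a nuclease of Okazaki fragments, at −0.51. The highest were *Pold4*, the small subunit of polymerase δ, at 0.31 (adjusted p = 0.00165, limma) and *Top1*, at 0.12 and not called. *Pold4* was called higher while *Pold1*, *Pold2* and *Pold3* were called lower. Of 8 chromatin assembly genes, which package new DNA, 6 were called lower and 0 higher, with a median of −0.17 that was 0.04 with median centring. *Chaf1b* was at −0.56 and *Nasp* at −0.48, whereas *Chaf1a* was at −0.11 and *Asf1a* at −0.00254 without a call.

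Of 29 genes of purine, pyrimidine and folate metabolism and nucleotide salvage, 15 were called lower and 1 higher, with a median of −0.15 that was 0.08 with median centring. *Paics*, of purine synthesis, was at −0.40 and *Dctpp1*, a dCTP pyrophosphatase, at −0.36. *Nme2*, a nucleoside diphosphate kinase, was the gene called higher, at 0.48, and *Ctps2* was at 0.09 without a call. Of 25 mitotic genes, 17 were called lower and 1 higher, with a median of −0.23 that was 0.05 with median centring. *Bub1* was at −0.54 and *Nusap1* at −0.51, while *Cenpf* was called higher at 0.22 and *Pttg1* was at 0.13 without a call.

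The E2F and RB genes were called in either direction, with 6 of 23 lower and 5 higher, among 23.7% and 30.6% of all tested genes. Their median was −0.04 with loess and 0.18 with median centring. *Lin54*, a DNA-binding subunit of the MuvB complex, was at −0.34 and *Tfdp2*, a partner of E2F, at −0.32. *E2f6*, a repressor of the family, was called higher at 0.53 and *Rb1*, the retinoblastoma protein, at 0.38. Of the further genes named, *Nasp*, *Paics*, *Dctpp1*, *Lin54* and *Tfdp2* lost their calls with median centring, and *Asf1a*, *Top1*, *Ctps2* and *Pttg1* were then called higher. *Cenpf* lost its call with the processed signals, the deposited values and no filter, while *Chaf1a* was called lower with the processed signals. *Pttg1* was called higher with the processed signals, the deposited values and the stricter filter, and *Top1* with the stricter filter and with the mean of a gene's probes. Beyond the 45 genes, tested genes with an E2F match in their promoter had a median log2 ratio of −0.02 (496 genes), against 0.03 for those without, and 29% and 23.8% of them were called lower. Of the 45, the 15 genes with a match had a median of −0.34 and 14 were called lower, and the 23 genes with a window and no match had a median of −0.28 and 18 were called lower. The CCAAT letters gave the opposite order, with medians of −0.28 for the 23 genes with a match and −0.34 for the 15 without. By role, the median was lower with an E2F match in origin recognition (−0.27 against −0.14) and MCM2-7 (−0.40 against −0.29). It was also lower in helicase activation, polymerase α-primase and Okazaki fragment maturation, each with 1 gene holding a match. The order was turned in polymerases δ and ε (−0.42 against −0.48). It was also turned in the clamp and its loader, where *Rfc3*, the only gene with a match, was at −0.18. The others there with a window had a median of −0.43. In the replication control list, 7 of 22 genes with a window held an E2F match. Of those with a match 42.9% were called lower, against 53.3% without, with medians of −0.13 and −0.19. In the E2F and RB list 8 of 17 genes held a match, and 12.5% against 44.4% were called lower. Its medians had the other order, at −0.08 with a match and 0.09 without. These shares rest on few genes. In the mitotic list only 1 of 21 genes with a window held a match.

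Markers of fibroblasts and of primitive endoderm were higher, whereas most of the replication genes were lower with loess. Of 19 fibroblast markers, 17 were tested and all 17 were called higher, 13 of them over 1.5-fold, from *Thy1* at 0.17 to *Tagln* at 1.47. *Lum* and *Fap* did not pass the filter, and *Thy1* lost its call with the processed signals, the deposited values and no filter. The summed processed signal of the fibroblast list was 52586 and 56790 in AIMP3-depleted cells and 23293 and 23006 in the control channels. Of 16 primitive endoderm markers, 13 were tested and all 13 were called higher, 12 over 1.5-fold, from *Amn* at 0.23 to *Sox17* at 1.44, while *Afp*, *Ttr* and *Hnf4a* did not pass the filter. *Amn* lost its call with the processed signals and the deposited values. Their summed signal was 188153 and 195494 against 94675 and 101003. Of the 15 mESC markers, 9 were called lower and 4 higher, from *Fgf4* at −0.87 to *Dppa5a* at 0.50. Their median was −0.15 with loess and 0.10 with median centring. The mESC list had a summed signal of 156954 and 157002 against 166098 and 167259. The 45 replication genes summed to 250786 and 243902 against 308417 and 303615. The part of these cell types in the lower ratios of the replication genes was not tested.

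**Figure D5:**
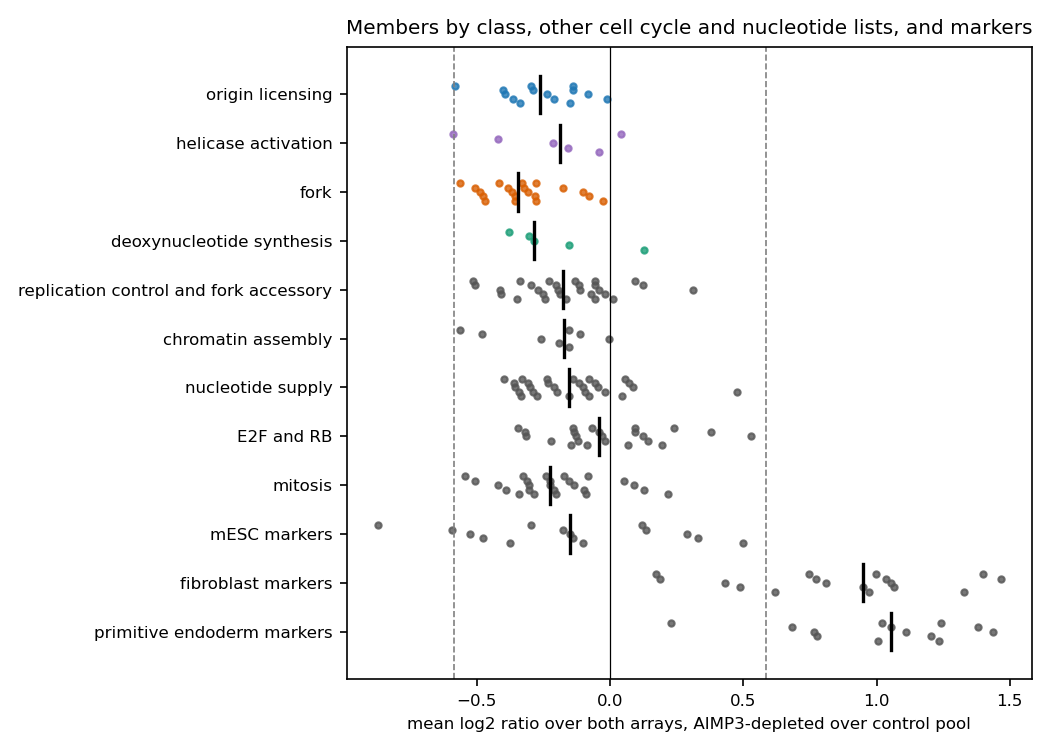
Mean log2 ratio over both arrays after loess (x axis) of each gene (points) in the 4 classes of replication and nucleotide genes, in the further lists and in the marker lists (rows), with the median as a vertical bar and 1.5-fold as dashed lines. The replication classes have medians between −0.34 and −0.19, the mitotic list −0.23 and the E2F and RB list −0.04. The fibroblast and primitive endoderm markers have medians of 0.95 and 1.05. With median centring the medians of all the further lists, of the mESC markers, of helicase activation and of deoxynucleotide synthesis were above 0.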

How the data were processed

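Total RNA of 2 AIMP3-depleted replicates (Cy5) and 1 pool of control RNA (Cy3) had been hybridized to 2 Agilent mouse arrays on 1 slide without a dye swap. For each array the authors deposited spot and local background intensities that were not normalized. According to the headers, Feature Extraction 11.5.1.1 made them, which differs from the version in the methods. The files also hold processed intensities, background-subtracted and dye-normalized by the software, and the deposited log10 ratio of both channels, Cy5 over Cy3. The values that the authors deposited after GeneSpring are log2 ratios. They equalled the log2 ratio of the processed signals plus a constant (0.0404 and 0.0395) within 0.01 for 99.8% of probes, and their medians were 0.0909 and 0.111.

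Median signals were corrected with limma's normexp (offset 50) and normalized by loess within each array, control spots had weight 0, and outlier spots (215 and 227) were left out. The test covered 33012 of 55681 probes, those that passed the scanner's background test on both arrays in either channel. The brightest probe stood for a gene. Names came from RefSeq accessions (GRCm38.p6), which matched 31014 spots, and no array coordinates are given. The mean ratio was tested against 0 with lmFit and eBayes, with 1 residual and 5.28 prior degrees of freedom after loess. Precision is limited by having 2 arrays. The members and lists were chosen with earlier results of these data known, so lists are described by counts and medians beside all tested genes. Named genes are all members and, of each other list, the genes past 1.5-fold or otherwise its 2 lowest and 2 highest; marker lists are given by their ends. The steps were tested on simulated data. Alternatives were no background subtraction, processed signals, median centring, the mean of a gene's probes, other filters on dim probes, the values deposited by the authors, the methods' t-test, a 2-fold threshold, another class for the helicase activators, and each replicate left out. The tools were limma 3.58.1 in R 4.3.3, and matplotlib 3.10.9.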

Additional observations from a re-analysis of the deposited data

How the results depend on the processing

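The number of members called lower (37 with loess) was 32 with the processed signals, 31 with the deposited table, 29 without a filter on dim probes among 37016 genes, 9 with median centring and 0 with the methods' t-test after Benjamini-Hochberg adjustment, which called 0 of all tested genes (20 members were lower and 0 higher at an unadjusted p under 0.05). The number called higher was 9 with median centring and 0 under the other alternatives that gave p-values, which leaving out a replicate did not. At the 1.5-fold threshold, 1 member was lower, against 2 without background subtraction, 2 with the processed signals, 0 with median centring (3.23% of all genes with the processed signals and 0.883% without background subtraction, against 0.791%), 0 at 2-fold, and 1 to 3 with either replicate left out (3 without replicate 1, a fold with no test). The median of all members (−0.30) was −0.0167 with median centring, −0.310 with the processed signals, −0.270 with the deposited table, and −0.312 to −0.296 with either replicate left out. The licensing median was −0.00226 with median centring. The fork median was −0.0846 with median centring, −0.326 with the processed signals, −0.286 with the deposited table, −0.326 with the mean of all probes, −0.326 with the helicase activators counted in it, and −0.346 to −0.336 with either replicate left out. The deoxynucleotide median was 0.0648 with median centring, which reversed it, −0.244 with the processed signals and −0.204 with the deposited table.

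With median centring, 9 members remained lower (*Gins1*, *Gins2*, *Lig1*, *Mcm6*, *Pola2*, *Pold2*, *Pold3*, *Rfc1* and *Rfc5*), and these genes turned positive: *Mcm5* (0.14), *Mcm10* (0.24), *Cdc6* (0.13), *Cdt1* (0.0541), *Gins3* (0.20), *Orc2* (0.0688), *Orc4* (0.18), *Orc6* (0.15), *Prim2* (0.20), *Pcna* (0.0384), *Rfc3* (0.0173), *Rpa1* (0.0599), *Rpa3* (0.19), *Fen1* (0.19), *Rrm2* (0.06), *Tk1* (0.10), *Chaf1a* (0.11), *Asf1a* (0.17) and *Dctpp1* (0.0691). Elsewhere *Gins4* was at −0.0021 with the processed signals, *Cdc6* at 0.0861 and *Ctps2* at −0.0118 with the mean of all probes, and *Asf1a* at 0.00863 without background subtraction. With either replicate left out, *Asf1a* ranged from −0.0666 to 0.0616, *Orc4* from −0.0675 to 0.0452 and *Prim2* from −0.0801 to 0.0290. The cause was not tested, apart from the shift of the median of all genes with median centring, which was 0.165 over all genes and 0.280 in the brightest of 3 intensity bins. No paired analysis was possible because the control was 1 pool on both arrays.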
